A study of Mus musculus with 23 samples.

Results

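A group of 8 genes, made up of 7 paired immune receptors of mouse myeloid cells and the ligand of 1 of them, was followed across splenic dendritic cell types and genotypes. The members were the inhibitory receptor Sirpa and its ligand Cd47, the inhibitory receptors Lair1 and Lilrb4a, and Cd300a, Cd300e, Cd300ld and Cd300lf of the CD300 family. They were taken by gene symbol and made up 8 of the 19938 genes named by a probe set that names 1 gene. They were measured by 9 of the 28853 probe sets, Cd47 having 2. All 8 passed the filter on dim probe sets and were among the 12157 genes tested.

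Each of 23 arrays (Mouse Gene 1.0 ST) held RNA of 1 sorted spleen population. The populations were cDC1 and cDC2, the conventional dendritic cell types known for cross-presentation and for presentation to CD4+ T cells, and pDC, the plasmacytoid dendritic cells known for making type I interferon. They were sorted from wild-type mice (WT) or from mice in which Bcl6, a gene for a transcriptional repressor, was conditionally deleted (Bcl6cKO, here cKO). WT cDC1, WT cDC2 and WT pDC had 3 arrays each, cKO cDC1 had 4, and cKO cDC2 and cKO pDC had 5 each. The sources used here name no Cre driver, strain, age, treatment of the mice or sorting gate. Values are log2 of the deposited intensity. A gene was called different where its adjusted p in limma, with Benjamini-Hochberg adjustment over all 12157 genes, was below 0.05. The labels do not say that arrays came from separate animals, so a p-value here reflects no more than the spread among the arrays hybridised, and that spread may be technical. In sorted bulk samples, fewer cells of a type and less RNA per cell cannot be told apart.

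Paired receptors of this kind sit on myeloid cells in inhibitory and activating forms. The inhibitory forms carry tyrosine motifs in their cytoplasmic tails that recruit phosphatases such as those encoded by Ptpn6 and Ptpn11. The activating forms have short tails and signal through adaptor chains such as those encoded by Tyrobp and Fcer1g. Sirpa binds Cd47, a surface protein found on nearly all cells that restrains engulfment. Lair1 binds collagens, and several CD300 receptors bind lipids exposed on dying cells.

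The arrays stood apart in a way the groups do not explain. Parted at the largest gap between sorted array medians, 14 arrays had medians of 29.3 to 34.3 intensity units and 9 had medians of 38.9 to 41.2, and both sets held all 6 groups. No label names these sets, and whether the arrays were normalized separately was not tested. Pairs of arrays within the high-median set shared 1005 to 2436 exactly equal probe set values and pairs within the low-median set 53 to 385, against fewer than 10 in 125 of the 126 pairs between the sets and 51 in the other. Array 1 of each WT group also had a high level of Xist (10.9, 11.3 and 11.9 in WT cDC1, WT cDC2 and WT pDC), so the main differences are given within each set and without these 3 arrays as well. Marker lists of the 3 sorted cell types were highest in their own cells. The mean log2 level over 8 cDC1 markers was 9.60 to 10.4 on cDC1 arrays of both genotypes, and 7 pDC markers averaged 10.7 to 11.7 on WT pDC arrays. The Bcl6 probe set gave no check of the deletion, and whether it covers the deleted part was not tested. Its cKO minus WT difference was 0.96 ± 0.35 (SE) in cDC1 and 0.69 ± 0.33 in cDC2 (limma adjusted p = 0.598 and 0.756). In pDC it was -0.15 ± 0.33, also not called.

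Promoter sequences were at hand in RefSeq for 6 of the 8 members. Cd300a, Cd300ld, Cd300e and Cd300lf lie in this order in 1 cluster of CD300 genes on chromosome 11, with other CD300 genes among them. The 3 promoters below belong to the genes whose levels differed most between genotypes and had an entry. Each runs 5′ to 3′ from 250 bases before to 50 bases after the annotated start on build GRCm38.p6, and capitals mark the motif GAGGAAGT, a core recognised by the myeloid ETS factor Spi1. They are Cd300lf at chr11:115133943-115134242, Cd300ld at chr11:114989837-114990136 and Lair1 at chr7:4063155-4063454, all on the minus strand.
Cd300lf: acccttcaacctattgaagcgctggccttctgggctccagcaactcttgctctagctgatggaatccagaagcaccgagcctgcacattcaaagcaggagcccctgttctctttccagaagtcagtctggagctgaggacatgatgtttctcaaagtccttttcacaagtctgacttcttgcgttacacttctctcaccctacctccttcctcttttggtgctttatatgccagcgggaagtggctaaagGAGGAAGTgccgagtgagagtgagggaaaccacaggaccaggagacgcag
Cd300ld: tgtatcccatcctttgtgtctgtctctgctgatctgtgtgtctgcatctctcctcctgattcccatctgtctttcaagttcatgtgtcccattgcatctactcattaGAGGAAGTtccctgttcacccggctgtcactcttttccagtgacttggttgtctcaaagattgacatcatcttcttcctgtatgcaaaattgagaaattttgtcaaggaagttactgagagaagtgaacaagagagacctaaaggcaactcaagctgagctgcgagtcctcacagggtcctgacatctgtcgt
Lair1: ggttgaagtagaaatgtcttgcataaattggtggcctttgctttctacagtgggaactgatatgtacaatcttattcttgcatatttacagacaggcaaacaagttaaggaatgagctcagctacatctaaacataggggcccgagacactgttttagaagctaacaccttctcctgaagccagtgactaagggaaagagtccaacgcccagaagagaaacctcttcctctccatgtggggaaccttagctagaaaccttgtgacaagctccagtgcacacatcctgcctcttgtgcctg

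The motif, searched on both strands, was at bases 1 to 8 from the start in Cd300lf and at bases -143 to -136 in Cd300ld, and 3.2% of 32817 mouse promoters of this length hold it. No match stood in the Lair1, Cd47, Cd300a or Cd300e windows. The BCL6-type motif TTCCTNGAA, held by 1.59% of all promoters, had no match in any of the 7 entries of the 6 genes. The wider palindrome TTCNNNGAA, which includes the former and is held by 8.29%, had 1 match, in Cd300e. These matches describe letters in a window and do not show that a factor binds there. The motifs were chosen with results for these genes known.

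In WT cells 5 of the 8 genes were lower in cDC1 than in cDC2 (Sirpa, Lair1, Cd300a, Cd300ld and Cd300lf), where 3.04% of all genes were called lower. Sirpa protein may have been used to sort cDC1 from cDC2, which could fix its place among these 5. Against pDC, 4 of the 8 genes were lower in WT cDC1 (Sirpa, Cd47, Lair1 and Cd300lf), where 5.14% of all genes were called lower. Between genotypes, Cd300lf, Sirpa and Lair1 were higher in cKO than in WT cDC1, Cd300ld and Lair1 were lower in cKO than in WT cDC2, and no gene of the 8 was called in pDC. In cDC1 the 3 calls, all upward, stood beside 0.814% of all genes called higher, and the median difference of the 8 genes was 0.47 against 0.06 over all genes. In cDC2 the 2 calls, both downward, stood beside 0.403% of all genes called lower, with medians of 0.07 and 0.07. In pDC 0.0329% of all genes were called, and the medians were 0.15 and 0.05. The groups did not overlap for 4 of the 8 genes in cDC1 (4.22% of all genes), 2 in cDC2 (4.71%) and 1 in pDC (0.666%). The gene in pDC was Cd300ld, with an unadjusted limma p of 0.0379, and its difference was not called after adjustment.

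**Figure D1:**
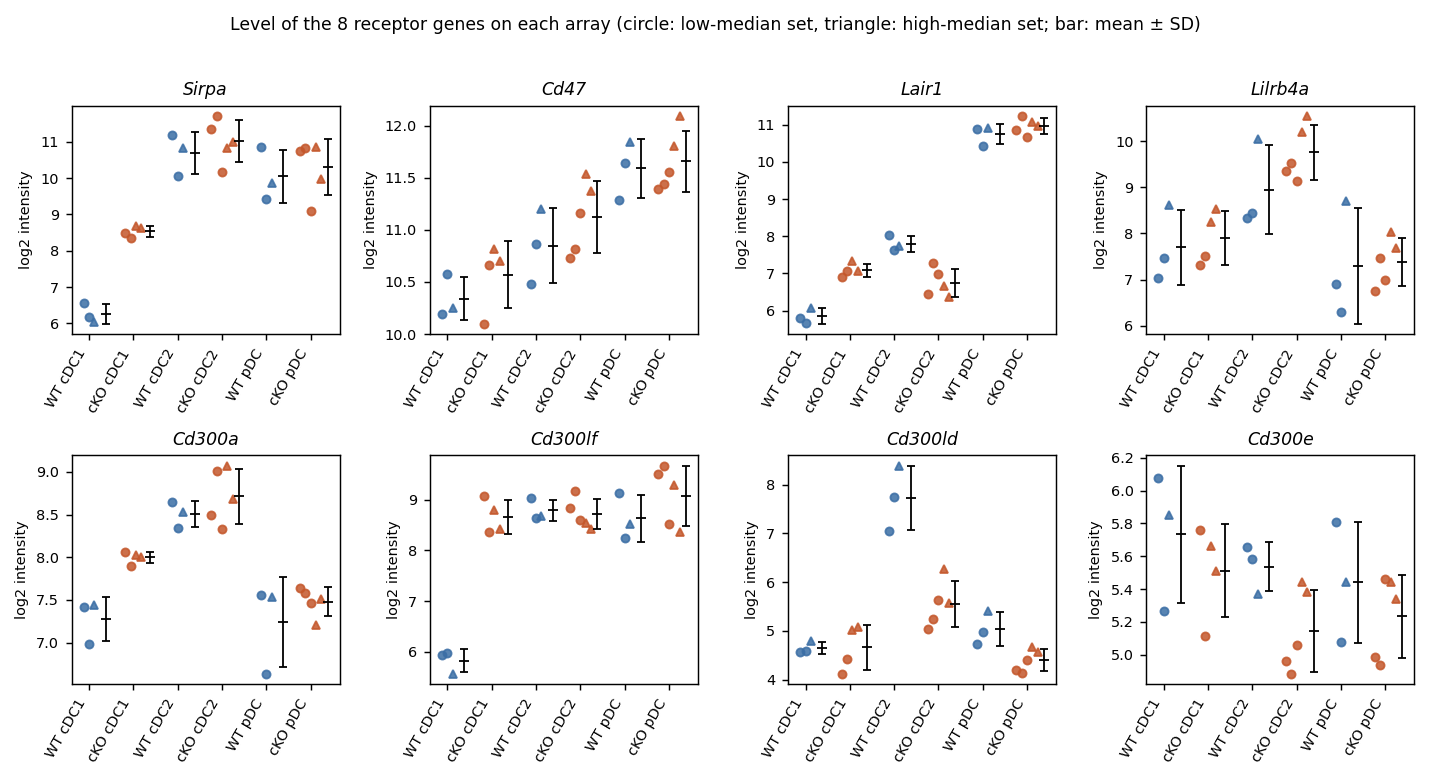
Log2 intensity (y axis) of the 8 genes on each of the 23 arrays by group (x axis), WT in blue and cKO in orange, with circles for the low-median set, triangles for the high-median set and bars for the mean ± SD. Cd300lf and Sirpa separate WT cDC1 from the other 5 groups, Cd300ld separates WT cDC2, and Lair1 is at 10.43 or above on pDC arrays only.

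Cd300lf, an inhibitory CD300 receptor that binds phospholipids, showed the widest genotype difference of the 8 genes. Its level in WT cDC1 was 5.94, 5.97 and 5.57 (probe set 10392845). In cKO cDC1 it was 9.08, 8.36, 8.80 and 8.43. Every cKO cDC1 array lay above every WT cDC1 array, with a gap of 2.39 between the groups. The difference was 2.84 ± 0.30 (SE, n = 3 and 4), or 7.17-fold, with a limma adjusted p of 1.71e-06. WT cDC2 had 9.03, 8.65 and 8.68, and cKO cDC2 had 8.84, 9.17, 8.60, 8.54 and 8.42. WT pDC had 9.14, 8.24 and 8.52, and cKO pDC had 9.51, 9.67, 8.53, 9.29 and 8.37. All of these arrays stood at 8.24 or above, as did those of cKO cDC1, and WT cDC1 stood alone at the bottom. In the order of levels the neighbours cKO pDC, WT cDC2, cKO cDC2, cKO cDC1 and WT pDC overlapped from each to the next. The step to WT cDC1 measured 2.80. WT cDC1 was 7.79-fold lower than WT cDC2 (-2.96 ± 0.32, adjusted p = 6.26e-07). Among cKO cells the same comparison gave -0.05 with a 95% interval of -0.59 to 0.49. The genotype difference in cDC1 exceeded that in cDC2 by 2.92 ± 0.41 (adjusted p = 0.000482) and that in pDC by 2.40 ± 0.41 (adjusted p = 0.00328). Over all genes 0.28% and 0.329% were called in these tests of a difference between cell types.

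Sirpa, which encodes the Cd47-binding inhibitory receptor also used as a surface marker of cDC2, was at 6.57, 6.19 and 6.03 in WT cDC1 (probe set 10476021). In cKO cDC1 it was at 8.49, 8.35, 8.67 and 8.63. The groups were parted by 1.77. The rise was 2.27 ± 0.40 (SE), or 4.82-fold, with an adjusted p of 0.00255. WT cDC2 held 11.17, 10.06 and 10.83 and cKO cDC2 11.36, 11.71, 10.17, 10.82 and 11.005, ranges that overlap. WT pDC held 10.85, 9.43 and 9.87 and cKO pDC 10.75, 10.84, 9.10, 10.85 and 9.96, which overlap too. The order of means was cKO cDC2, WT cDC2, cKO pDC, WT pDC, cKO cDC1 and WT cDC1, and only the last steps, of 1.52 and 2.27, parted neighbours that did not overlap. Unlike Cd300lf, Sirpa in cKO cDC1 remained below cKO cDC2 (-2.48 ± 0.36, adjusted p = 2.76e-05) and below cKO pDC (-1.77 ± 0.36, adjusted p = 0.000658). Sirpa protein may have been part of the sort of cDC1 and cDC2, so its level in both types is a description of the cells taken. The excess of the genotype difference in cDC1 over cDC2 was 1.95 ± 0.56 (95% interval 0.79 to 3.11) and over pDC 2.02 ± 0.56. Neither passed the adjusted threshold (adjusted p = 0.295 and 0.279), so a difference between cell types was not shown for Sirpa in this fit. With the replicate number within genotype as a random block both were called (adjusted p = 0.0244 and 0.0202). The first was also called with array weights (adjusted p = 0.0256) and the second with that number as a fixed block (adjusted p = 0.0401). No label says that these numbers pair samples. In cKO cells, array 3 lay in the high-median set for cDC1 and in the low-median set for cDC2 and pDC.

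Cd47, the ligand, was bright on every array and was not called between genotypes. Its tested probe set (10436196) ran from 10.10 to 12.09 and the other from 9.57 to 10.95, and over the 23 arrays they had a Pearson r of 0.804. The genotype differences of the tested probe set were 0.23 in cDC1, 0.27 in cDC2 and 0.07 in pDC, all with an adjusted p of 1, and the interval in cDC1 was -0.28 to 0.74. At the tested probe set Cd47 followed the cell type. Its means were 10.34 in WT cDC1, 10.85 in WT cDC2 and 11.59 in WT pDC, and 10.57, 11.12 and 11.66 in the cKO cells. WT cDC1 was lower than WT pDC by -1.25 ± 0.26 (adjusted p = 0.00149) and cKO cDC1 lower than cKO pDC by -1.09 ± 0.22 (adjusted p = 0.000579). At the other probe set, which was not tested, the means lay closer together. They were 9.92 in WT cDC1, 9.97 in WT cDC2 and 10.46 in WT pDC, and 10.15, 10.19 and 10.44 in the cKO cells. There the ranges of cKO cDC1 and cKO pDC overlapped. In the order of the 6 means each group overlapped the next at both probe sets.

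Lair1, the collagen-binding inhibitory receptor, moved in opposite directions in the conventional types. Its level in WT cDC1 was 5.82, 5.67 and 6.09 (probe set 10559486). In cKO cDC1 it was 6.92, 7.06, 7.33 and 7.06. The groups did not overlap, and the rise was 1.23 ± 0.22 (SE), or 2.35-fold (adjusted p = 0.00244). In WT cDC2 the level was 8.03, 7.62 and 7.75. In cKO cDC2 it was 6.44, 7.27, 6.99, 6.66 and 6.38. Here every cKO array lay below every WT array by at least 0.35, and the difference was -1.05 ± 0.21, or 2.07-fold lower (adjusted p = 0.00606). This call in cDC2 was lost without WT cDC2 array 1, with a difference of -0.94 and an adjusted p of 0.0787, and without the 3 high-Xist arrays (adjusted p = 0.108). The difference between the genotype effects in cDC1 and cDC2 was 2.28 ± 0.30 (adjusted p = 0.000244). In pDC, where Lair1 was far brighter, WT held 10.88, 10.43 and 10.91 and cKO 10.86, 11.23, 10.67, 11.08 and 10.98. These overlapped, and the difference was 0.22 with an interval of -0.21 to 0.66. WT cDC1 and WT cDC2 differed in Lair1 by -1.94 ± 0.23 (adjusted p = 3.37e-06). In cKO cells the difference was 0.34 ± 0.19, overlapping and not called (adjusted p = 0.408). The order of means was cKO pDC, WT pDC, WT cDC2, cKO cDC1, cKO cDC2 and WT cDC1, in which the pDC groups overlapped each other and cKO cDC1 overlapped cKO cDC2.

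**Figure D2:**
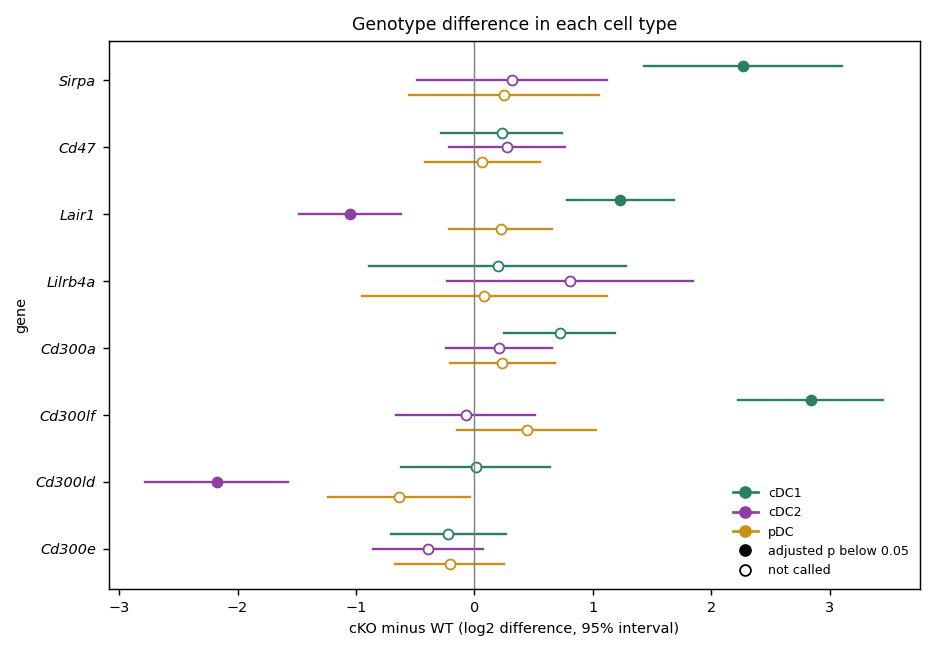
Difference of cKO minus WT in log2 intensity (x axis) for each of the 8 genes (y axis), in cDC1 (green), cDC2 (purple) and pDC (orange), with points at the limma estimate and bars for its 95% interval, filled where the adjusted p is below 0.05. Cd300lf, Sirpa and Lair1 lie to the right in cDC1 at 2.84, 2.27 and 1.23, Cd300ld and Lair1 lie to the left in cDC2 at -2.18 and -1.05, and no pDC point is filled.

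Cd300ld, an activating CD300 receptor that signals through the Fcer1g chain, was highest in WT cDC2. Its level in WT cDC2 was 7.06, 7.75 and 8.37 (probe set 10392808), and all 3 arrays were over their array median. In cKO cDC2 it was 5.05, 5.23, 5.62, 6.27 and 5.56. The groups were parted by 0.79. The fall was -2.18 ± 0.29 (SE), or 4.52-fold lower, with an adjusted p of 6.39e-05. In cDC1 the level was 4.57, 4.59 and 4.80 in WT and 4.13, 4.43, 5.01 and 5.08 in cKO, which overlap. No cDC1 array had Cd300ld over its array median, so a difference there (0.01, interval -0.62 to 0.64) is one of dim values. WT pDC had 4.73, 4.98 and 5.40 and cKO pDC 4.20, 4.14, 4.41, 4.66 and 4.57. The pDC groups did not overlap, though by only 0.07, and 1 of these 8 arrays had Cd300ld over its median. The pDC difference of -0.64 ± 0.29 did not pass the threshold (adjusted p = 1). cKO cDC2 was lower than WT cDC2 but still above cKO pDC, by 1.15 ± 0.25 (adjusted p = 0.00139). The cKO cDC1 minus cKO cDC2 difference was -0.89 ± 0.27 (adjusted p = 0.037). It was no longer called without cKO cDC1 array 1 or 2 or cKO cDC2 array 3, 4 or 5 (adjusted p = 0.0651 to 0.169). The same held with no filter, a pseudocount of 16 and only the compared groups in the fit (adjusted p = 0.0523, 0.0777 and 0.0611). The genotype difference in cDC1 minus that in cDC2 was 2.19 ± 0.42 (adjusted p = 0.0156). That call was lost without WT cDC1 array 1 or 2 or WT cDC2 array 2 or 3, with adjusted p-values of 0.0528 to 0.0703, and with only the compared groups in the fit (adjusted p = 0.0608). Against pDC, the genotype difference in cDC2 was more negative by -1.54 ± 0.41, which was not called (adjusted p = 0.153), and none of the 8 genes was called in that test, beside 0.485% of all genes. Several close relatives (Cd300ld3, Cd300ld4 and Cd300ld5) had only probe sets naming more than 1 gene, so the part of Cd300ld transcripts in this signal relative to theirs is uncertain.

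Cd300a, an inhibitory CD300 receptor, was at 7.42, 6.98 and 7.44 in WT cDC1 (probe set 10382438). In cKO cDC1 it was at 8.06, 7.90, 8.03 and 8.0. The cKO arrays all lay above the WT arrays, by 0.47 at the nearest. The difference of 0.72 ± 0.23 was not called (adjusted p = 0.296). In cDC2 the WT range was 8.35 to 8.65 and the cKO range 8.33 to 9.07, and in pDC 6.64 to 7.55 and 7.2 to 7.64, and both pairs overlapped. In WT cells Cd300a was higher in cDC2 than in the other types, by 1.23 ± 0.24 over cDC1 (WT cDC1 minus WT cDC2 -1.23, adjusted p = 0.00151) and by 1.26 ± 0.24 over pDC (adjusted p = 0.000577). In cKO cells it exceeded pDC by 1.24 ± 0.19 (adjusted p = 2.04e-05). The cKO cDC1 minus cKO cDC2 difference was -0.72 ± 0.20 (adjusted p = 0.0212), a call lost without any 1 of cKO cDC1 arrays 2 and 4 and cKO cDC2 arrays 2 and 4 (adjusted p = 0.0528 to 0.0656).

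Lilrb4a, an inhibitory receptor of the leukocyte immunoglobulin-like family, was higher in the high-median than in the low-median set. WT cDC1 had 7.03, 7.47 and 8.61 and cKO cDC1 7.31, 7.51, 8.24 and 8.54. WT cDC2 had 8.34, 8.45 and 10.06 and cKO cDC2 9.36, 9.53, 9.15, 10.21 and 10.54. WT pDC had 6.90, 6.29 and 8.71 and cKO pDC 6.76, 7.46, 6.99, 8.04 and 7.69. The highest array of every WT group was its array 3, the only WT array of that type in the high-median set, and the groups of both genotypes overlapped in all 3 cell types. Fitted over all arrays, the high-median set was 1.22 ± 0.14 above the low-median set for Lilrb4a, against a median of 0.36 over all genes. The genotype differences were 0.20 ± 0.52 in cDC1, 0.81 ± 0.50 in cDC2 and 0.08 ± 0.50 in pDC, each with an adjusted p of 1. In cKO cells Lilrb4a was higher in cDC2 than in pDC by 2.37 ± 0.43 (adjusted p = 0.000212) and lower in cDC1 than in cDC2 by -1.86 ± 0.46 (adjusted p = 0.00933). In WT cells the cDC2 minus pDC difference was 1.65 ± 0.56 (adjusted p = 0.0561) and, with the set as a term, 1.65 ± 0.26 (adjusted p = 8e-05). Without WT pDC array 3 it was 2.35 (adjusted p = 0.00423). WT cDC1 minus WT cDC2 was -1.25 ± 0.56 (adjusted p = 0.293), and -1.25 ± 0.26 with the set as a term (adjusted p = 0.00254). The near copy Lilrb4b had no probe set of its own, so the 2 genes may share this signal (probe set 10363082).

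Cd300e, an activating CD300 receptor of monocytes that pairs with the Tyrobp chain, stayed between 4.89 and 6.08 on all 23 arrays (probe set 10392839). The array medians were 4.87 to 5.36 on this scale, and Cd300e was over them on 21 arrays, so these are fairly dim values. Its genotype differences were -0.22 in cDC1, -0.39 in cDC2 and -0.21 in pDC, all with an adjusted p of 1. Its 6 group means overlapped from each to the next, and no comparison of cell types called it.

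Between cell types, 3 of the 8 genes were called in WT cDC2 against WT pDC. Lair1 was lower by -2.94 ± 0.23, where 4.8% of all genes were called lower, and Cd300a and Cd300ld (2.69 ± 0.32) were higher, where 7.93% were. In cKO cells the same genes were called in the same directions, together with Lilrb4a higher, beside 7.27% of all genes called lower and 13.5% called higher. Sirpa, Lilrb4a, Cd300a and Cd300ld were lower in cKO cDC1 than in cKO cDC2, 4 of 8 beside 4.95% of all genes. Here too the sort may have fixed the place of Sirpa. Sirpa, Cd47 and Lair1 were lower in cKO cDC1 than in cKO pDC, 3 of 8 beside 7.9%. In both genotypes Lair1 was highest in pDC, with WT cDC1 29.5-fold and cKO cDC1 14.6-fold below the pDC of the same genotype.

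**Figure D3:**
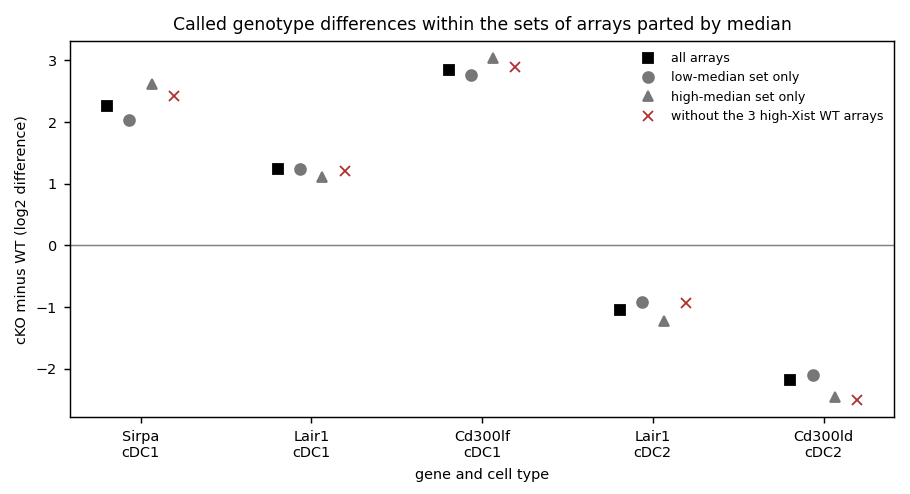
Difference of cKO minus WT in log2 intensity (y axis) for the 5 called genotype differences (x axis), over all arrays (squares), within the low-median set (circles), within the high-median set (triangles) and without the 3 high-Xist WT arrays (crosses). All 4 symbols stand on the same side of 0 for each gene, between 2.04 and 2.61 for Sirpa and between -2.51 and -2.10 for Cd300ld.

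Each called genotype difference had the same direction within the low-median and the high-median set. In cDC1 Cd300lf rose by 2.77 within the low-median set and 3.04 within the high-median set. Sirpa rose by 2.04 and 2.61, and Lair1 by 1.24 and 1.11. In cDC2 Cd300ld was at -2.10 and -2.46 and Lair1 at -0.92 and -1.23. The high-median set held 1 WT array of each type, so these values carry no test. Without the 3 high-Xist arrays the cDC1 differences were 2.90 for Cd300lf (adjusted p = 3.06e-05), 2.42 for Sirpa (adjusted p = 0.00572) and 1.21 for Lair1 (adjusted p = 0.0297). Cd300ld in cDC2 was then at -2.51 (adjusted p = 0.000126). The excess of the Cd300lf difference in cDC1 over that in pDC was 2.20 and no longer called (adjusted p = 0.0578).

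Some genes of the cDC2 marker list rose in cKO cDC1 beside the receptors. Of 8 cDC2 markers, Sirpa left out, 2 were called higher there (the C-type lectin Cd209a by 3.20 and the integrin Itgam by 2.14) and none lower, beside 0.814% of all genes called higher. Their mean level was 4.66 to 4.94 on WT cDC1 arrays, 5.40 to 5.64 on cKO cDC1 arrays and 7.29 to 7.79 on WT cDC2 arrays. The other 6, Clec10a (0.35), Esam (0.28), Dtx1 (-0.01), Mgl2 (-0.14), Cd4 (-0.20) and Clec4a4 (-0.20), were not called in cKO cDC1. Not all of the list was particular to cDC2. Cd209a had a mean of 10.84 in WT pDC against 10.49 in WT cDC2, while Itgam had 5.34 against 8.41. Clec10a (8.59 against 5.78), Mgl2 (7.11 against 6.04) and Cd4 (9.18 against 7.67) also had higher means in WT pDC. None of the 7 pDC markers was called in cKO cDC1, at 5.99 to 6.88 against 10.7 to 11.7 on WT pDC arrays. In cDC2 the marker set itself changed. There 4 of 8 markers rose (Clec10a 2.41, Mgl2 2.0, Itgam 1.25 and Cd209a 1.0) and 2 fell (Clec4a4 -2.72 and Dtx1 -1.62, a regulator of Notch signalling), beside 1.16% of all genes called higher and 0.403% called lower. Of 9 red pulp macrophage markers 2 rose in cKO cDC2 (Mertk 2.40 and Cd163 0.76), with a list mean of 4.84 to 5.47 in WT and 5.47 to 6.18 in cKO. Of 7 monocyte markers 2 rose (Ccr2 1.94 and Lyz2 1.44), at 7.44 to 8.21 in WT and 8.14 to 9.01 in cKO. None of 4 T cell markers was called in cKO cDC2, though their list mean was 6.07 to 6.52 in WT and 6.72 to 7.47 in cKO, with a median difference of 0.997. None of 6 neutrophil markers was called either, with median differences of 0.87 in cDC1 and 0.68 in cDC2 and list means that overlapped between genotypes. The part of these other cell types in the receptor differences was not tested.

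The other genes of the paired receptor system were mostly not called between genotypes. Of 48 genes on the list of adaptors, phosphatases, kinases and related receptors, 34 had a probe set of 1 gene and 30 were tested. In cDC1 2 rose and none fell, beside 0.814% of all genes called higher. In cDC2 4 rose and none fell, beside 1.16% called higher, and in pDC none was called. Cd33, a sialic acid-binding inhibitory receptor, rose by 4.68 in cDC1 (adjusted p = 9.81e-11) and by 2.46 in cDC2. Treml2, a receptor of the Trem family, rose by 1.37 in cDC1 and by 1.15 in cDC2 (adjusted p = 0.000567 and 0.00213). In cDC2 Cd200r1, the inhibitory receptor for Cd200, rose by 1.58 (adjusted p = 0.0127) and Cd300lg, another CD300 gene, by 0.89 (adjusted p = 0.0364). Without passing the threshold, Fcgr2b, an inhibitory receptor for antibodies (-1.08, adjusted p = 0.0754), and the CD300 gene Cd300c (-1.18, adjusted p = 0.0903) had lower means in cKO cDC1. The Cd200r1 call was lost without WT cDC2 array 1 or 2 (adjusted p = 0.0964 and 0.0773), and that of Cd300lg without any WT cDC2 array or without cKO cDC2 array 1 or 2 (adjusted p = 0.063 to 0.193). The adaptors Tyrobp (0.49) and Fcer1g (0.43) and the phosphatase gene Ptpn6 (0.22) were not called in cDC1, nor in the other types. The median difference of the 30 genes was 0.09 in cDC1, 0.04 in cDC2 and 0.13 in pDC, against 0.06, 0.07 and 0.05 over all genes.

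Across the 23 arrays, which share cell types and the sets parted by median, the genes most like each member by Pearson correlation are given as a description. Cd300lf was followed most closely by Cybb, a subunit of the phagocyte oxidase (r = 0.931), Cd33 (0.874) and Sirpa (0.851). For Sirpa the closest were Entpd4 (0.919), Cd209a (0.918) and Zeb2 (0.913). For Lair1 they were Mef2c (0.972), Tubgcp5 (0.963) and Siglech (0.961), and for Cd300ld Clec4a4 (0.956), Man1a (0.906) and Dtx1 (0.897). Clec4a4 and Dtx1 were also the cDC2 markers that fell in cKO cDC2. Cd300a was closest to Itgam (0.918), Emb (0.888) and Adgre1 (0.887), and Cd47 to Lgals1 (0.921), Klra17 (0.913) and Slc49a4 (0.911). Lilrb4a was closest to Nfkbia (0.930), Plekhg2 (0.928) and Cox6b2 (0.920). Cd300e, whose range over all arrays was 1.19, had the lowest correlation with its closest gene, Golph3 at 0.719, then Clip2 (0.706) and Slc31a1 (0.667).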

How the data were processed

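RNA of the 3 sorted dendritic cell types of both genotypes was hybridised to 23 arrays. Per the submitters' processing notes, the authors made the intensity values with Affymetrix Expression Console and RMA (versions not given in the sources used here), and the deposited intensity values lie on a linear scale from 3.785 to 13980.744. The log2 values tested here were taken from the deposited intensities, with no further normalization. Genes were named through the platform's annotation, updated by Entrez identifier to RefSeq (21698 of 21789 probe sets naming 1 gene matched), and 1621 probe sets naming several genes were left out. Probe sets brighter than the median of their array on 3 or more arrays were kept, and the brightest of these stood for a gene.

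All 23 arrays entered 1 limma fit (version 3.58.1, R 4.3.3, data.table version 1.17.8) of 6 group means, with 17 residual degrees of freedom and two-sided tests. Precision is limited by the number of arrays. On simulated data for cKO minus WT in cDC1 over 12157 genes, the fit recovered 89% of changes of 2 and 43% of changes of 1 on the log2 scale, with 8 false calls. The simulated noise was independent between genes and arrays and held no sets of arrays, so these shares may not hold for the real arrays. Figures used matplotlib 3.10.9 in Python 3.11.15. Promoters and gene neighbours came from RefSeq (GRCm38.p6).

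The members, the related gene list, the marker lists and the motifs were chosen with earlier results of these data known. Named are all 8 members, genes of the related list called between genotypes (up to 6 each way), and the 3 genes most correlated with each member. Markers, uncalled adaptors, Ptpn6, Cd300c and Fcgr2b were named after their values were seen. Of 10 marker lists, only those of cDC2, red pulp macrophages and monocytes had members called between genotypes. Those of cDC1, pDC, B cells, T cells, NK cells, neutrophils, and erythroid cells and platelets had none in any cell type. Alternatives covered normalization, filter, pseudocount, variance model, array weights, blocks, the sets parted by array median, high-Xist arrays, probe set choice and each array left out.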

Additional observations from a re-analysis of the deposited data

Results flagged for a closer look

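The genotype difference differed between cell types, by limma's test of the difference itself, for 3 of the 8 genes. In cDC1 minus cDC2 it was 2.92 for Cd300lf, 2.28 for Lair1 and 2.19 for Cd300ld on the log2 scale. For Cd300lf cDC1 was the only type called, for Cd300ld only cDC2 was called, and Lair1 was called in both with opposite signs. In cDC1 minus pDC it was 2.40 for Cd300lf. No array stood far from the others of its group, by the ratio of its gap to the group's range, in the 24 sets of 1 gene and 1 cKO group tested, where chance gives about 1 in 20. Groups of 3 were not tested.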

How the results depend on the processing

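The calls of Sirpa, Lair1 and Cd300lf in cDC1 and of Cd300ld in cDC2 were kept in all 36 alternatives that gave them a test, at adjusted p-values of at most 0.0228, 0.034, 0.000168 and 0.00719, and no called value changed sign. Of the 8 genes, WT cDC2 against WT pDC called 5 in place of 3 under quantile normalization, arrays centred on their median, the replicate block, the replicate block within genotype, the random replicate block and the set term. Over all genes the calls rose as well, from 964 higher and 584 lower to 1203 to 1584 higher and 678 to 1049 lower. For the genotype difference in cDC2 minus that in pDC, 0 genes became 1 under quantile normalization and centring, and 2 under a pseudocount of 16, the 3 replicate block fits and the set term (Cd300ld in each, at adjusted p-values from 0.00226 to 0.0329, and Lair1 where 2). Over all genes this test called 44 higher and 15 lower in the main fit, and 36 to 101 and 17 to 49 in these. The genotype difference in cDC1 minus that in pDC called 0 in place of 1 under centring (Cd300lf, adjusted p = 0.0713) and without the high-Xist arrays, and 2 under the replicate block within genotype and the random replicate block (Sirpa added, adjusted p = 0.0401 and 0.0202). Over all genes it called 39 higher and 1 lower in the main fit. In these alternatives it called 42, 23, 86 and 80 higher in turn, and 1 to 3 lower. For cKO cDC1 against cKO pDC, 3 became 8 with array weights and 5 with the replicate block within genotype. Over all 12157 genes this comparison called 1525 higher and 960 lower in the main fit. With array weights it called 4599 and 1704, and with that block 2942 and 1299. For cKO minus WT in cDC2, 2 became 1 with only the groups compared (Lair1, adjusted p = 0.0766) and without the high-Xist arrays. Calls over all genes fell there from 141 higher and 49 lower to 98 and 33, and to 77 and 29, in turn. The cause of these changes was not tested. With each array left out, the counts were 3 in cDC1, 1 to 2 in cDC2 and 0 in pDC for genotype. They were 5, 4 and 3 to 4 for WT cDC1 against cDC2, cDC1 against pDC and cDC2 against pDC, and 2 to 4, 3 to 4 and 4 to 5 for cKO. For the differences of differences they were 2 to 3, 1, and 0 to 1. Correlations between arrays cannot show whether shared replicate numbers pair the samples, since arrays of the same number mostly lie in the same set. Within a genotype, 17 of 22 same-numbered pairs had a correlation of deviations over 0.1, against 17 of 70 pairs with different numbers. Between genotypes within a cell type it was 5 of 9 against 10 of 33. Of 23 arrays, 16 correlated best with their own number, among other groups of their genotype. The share to be had without pairing was not worked out. The replicate block kept all 32 calls and added 6, and within genotype it kept 27 of 27 and added 11. Array weights did not fully converge. Of the related genes, Cd300lg in cDC2 lost its call under quantile normalization (adjusted p = 0.195), centring (0.165) and with only the groups compared (0.24), and Treml2 in cDC1 under the last (0.0519). Cd300ld was over the array median on 1 of 15 arrays outside cDC2, so its differences there are of dim values.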
